A study of Homo sapiens with 6 samples.

Results

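CPA4 encodes a secreted metallocarboxypeptidase, and it lies in a run of carboxypeptidase A genes at 7q32 beside the imprinted genes MEST, COPG2 and KLF14. LXN was added to them and encodes latexin, an inhibitor of carboxypeptidases of the A type. The set was chosen by the signal of CPA4, which was lower in the cells labelled miR-196b, and its difference is therefore a description and supports nothing. Of the 7 listed genes, 6 had a probe set under their own symbol: CPA4, CPA5, CPA1, MEST, KLF14 and LXN, with 1 probe set each among 16098 named probe sets of 53617 on the array. No probe set was named for COPG2, which was not analysed here.

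The cells were HCT116, an established human colorectal carcinoma line that some labels spell HTC116. One group of 3 arrays is labelled as cells stably transduced to overexpress miR-196b, with titles that read miR1966OE, and the other 3 arrays as cells stably transduced with an empty vector. The probe sets did not bear the first label out as written: that of MIR196B overlapped between the groups, and that of MIR196A2, a gene for the related miR-196a, was far higher. Every direction below is therefore that of the arrays labelled miR-196b. Total RNA was labelled with biotin and hybridised to whole-transcript arrays. Arrays of 1 group are described as biological replicates, with nothing on separate transductions or clones, so p-values cover only the spread between these samples, which may be technical.

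Carboxypeptidases of the M14 family use a zinc ion to cut single amino acids from the C-terminal end of proteins and peptides. Most members of the A and B subfamily are secreted as zymogens and become active when their prodomain is removed. CPA1 is a digestive enzyme of the pancreas, CPA5 is known mainly from testis, and CPA4 was first described as a gene induced by histone deacetylase inhibitors in prostate cancer cells. MEST, which carries the microRNA gene MIR335 in an intron, is expressed from the paternal copy, and KLF14, a single-exon Krüppel-like transcription factor gene, from the maternal copy.

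The microRNA named by the labels and its close relative are shown because the group label turns on them, with the seed (bases 2 to 8) in capitals. Both have the same seed, and the sequences are those of RefSeq for GRCh38.p14.
miR-196b-5p: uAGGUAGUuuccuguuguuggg
miR-196a-5p: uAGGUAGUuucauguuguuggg
The probe set of MIR196B had a log2 difference (arrays labelled miR-196b minus empty vector) of 0.08, with overlapping groups, and that of MIR196A2 one of 7.55. The array reads precursor transcripts, not mature microRNAs, and where the MIR196B probes lie relative to the transduced sequence is not known here. Transcript sequences were not used here, so matches to this seed in CPA4 were not looked for.

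The 250 bases before the start of CPA4, CPA1 and KLF14 are shown to set CPA4 beside a gene of its own family and an imprinted neighbour. They are printed 5′ to 3′ on the gene's strand, from RefSeq for GRCh38.p14. Capitals mark the letters TATAAA (the core of a TATA box), TGANTCA (the core of an AP-1 site) and GGGCGG (the core of a GC box) on either strand.
CPA4 (chr7:130292911-130293160, plus strand): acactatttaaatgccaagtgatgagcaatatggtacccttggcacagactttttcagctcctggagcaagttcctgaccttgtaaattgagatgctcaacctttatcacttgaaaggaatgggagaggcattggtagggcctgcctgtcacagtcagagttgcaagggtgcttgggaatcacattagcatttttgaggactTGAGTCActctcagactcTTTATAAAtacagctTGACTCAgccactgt
CPA1 (chr7:130380244-130380493, plus strand): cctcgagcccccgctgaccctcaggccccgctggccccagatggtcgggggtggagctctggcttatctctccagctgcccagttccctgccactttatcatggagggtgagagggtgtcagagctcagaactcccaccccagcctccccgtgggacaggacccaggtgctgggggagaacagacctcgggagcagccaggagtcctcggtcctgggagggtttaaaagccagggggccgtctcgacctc
KLF14 (chr7:130734208-130734457, minus strand): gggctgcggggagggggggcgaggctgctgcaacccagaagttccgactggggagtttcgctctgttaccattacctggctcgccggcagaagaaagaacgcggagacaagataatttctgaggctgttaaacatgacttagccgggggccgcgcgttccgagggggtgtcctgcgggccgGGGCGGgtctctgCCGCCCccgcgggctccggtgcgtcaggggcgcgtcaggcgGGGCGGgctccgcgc
The CPA4 window held no CG pair, as did 6.06% of 35116 windows of this length. Its TATAAA starts 28 bases before the start site and overlaps a match on the other strand that begins 30 bases before it. TATAAA was in 10.7% of all windows. Matches to TGANTCA began 48 and 15 bases before the start, and 0.402% of windows held at least 2. The CPA1 window held 9 CG pairs. It had none of the 3 motifs, like 44.1% of windows. The KLF14 window held 27 CG pairs and 3 GC boxes, a motif found in 42.6% of windows. Of the windows not printed, that of LXN held 7 CG pairs, 1 GC box and, like CPA4, a TATAAA, which began 213 bases before the start. The COPG2 window held 30 CG pairs and 2 GC boxes. MEST has 5 windows with 9 to 20 CG pairs, of which 2 held GC boxes and 0 held TATAAA or TGANTCA. No window for CPA5 was at hand. These matches describe letters and show no binding.

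The identity of the cells was read from epithelial markers. EPCAM, an epithelial adhesion molecule, averaged 10.9 in arrays labelled miR-196b and 11.0 in empty vector arrays, and KRT19, a keratin of simple epithelia, averaged 10.1 in both (log2 signal). KRT18, another such keratin, averaged 11.1 ± 0.0280 in arrays labelled miR-196b and 11.3 ± 0.0272 in empty vector arrays at its brighter probe set (log2 signal, SD, n = 3 each). CDX2, a transcription factor of the intestine, averaged 5.82 ± 0.153 in arrays labelled miR-196b and 6.08 ± 0.0906 in empty vector arrays (log2 signal, SD, n = 3 each). The groups did not overlap for either, with log2 differences of -0.22 and -0.26 (limma adjusted p = 0.405 and 0.481). Groups without overlap were seen for 17.2% of all named probe sets. The groups overlapped for the other epithelial probe sets, among them KRT8 (log2 difference -0.09) and the dimmer KRT18 probe set (-0.10). VIL1, a protein of the brush border, was dim, at 4.18 in arrays labelled miR-196b and 4.13 in empty vector arrays. Levels of different probe sets are not comparable with each other, and the deposited values carry no detection call, so brightness is given as a percentile of mean signal among the named probe sets.

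CPA4 fell in the cells labelled miR-196b, and its probe set (17051553) had the largest fall of all 16098. Its log2 signal was 7.19, 7.20 and 7.11 in the arrays labelled miR-196b, against 8.59, 8.43 and 8.61 in the empty vector arrays. The groups were separated by a gap of 1.23, and each was tight, with an SD of 0.0526 in arrays labelled miR-196b and 0.0988 in empty vector arrays (n = 3 each). The log2 difference was -1.38 with an SE of 0.08 and a 95% interval of -1.57 to -1.19, a 2.60-fold lower signal. The CPA4 probe set lay at percentile 79.7 of brightness. In RNA from whole cultures, fewer cells expressing a gene and less RNA per cell cannot be told apart. The falls next in size were those of KRTAP3-1 (-1.29) and KRTAP2-3 (-1.26).

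**Figure D1:**
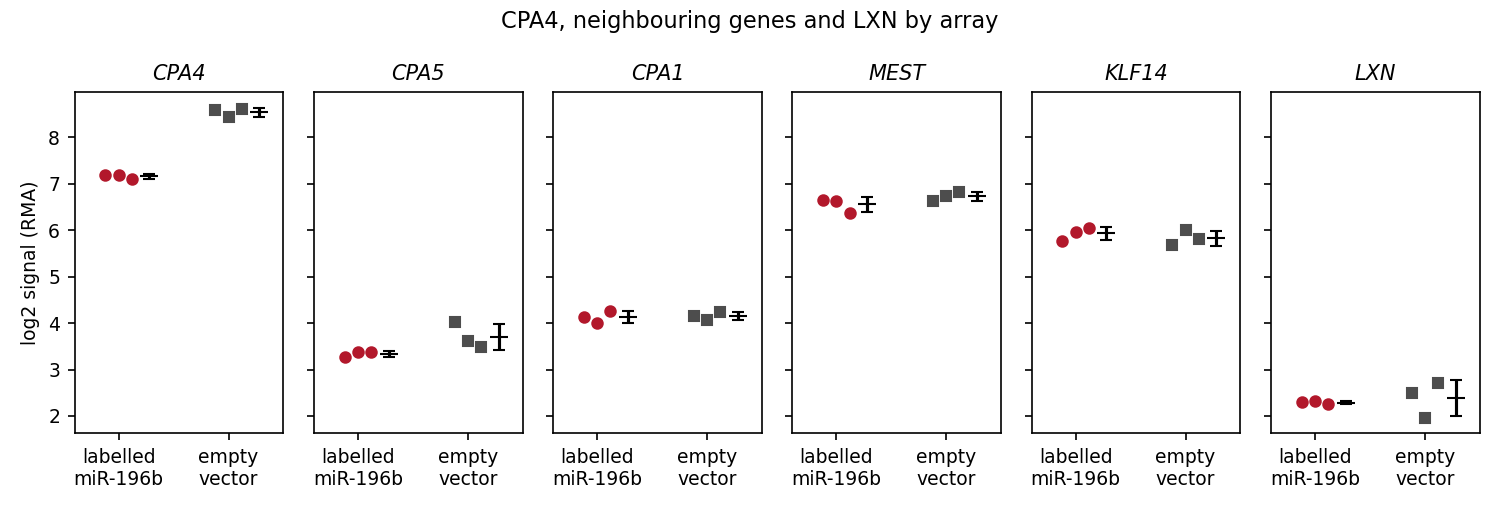
Log2 signal of the 6 named probe sets in each array, with arrays labelled miR-196b as circles, empty vector arrays as squares, and bars for mean ± SD (n = 3 each). Compare groups within a panel only. CPA4 lies at 7.11 to 7.20 in arrays labelled miR-196b and at 8.43 to 8.61 in empty vector arrays, while the groups of CPA1, MEST, KLF14 and LXN overlap.

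CPA5, the next gene along the chromosome, was lower on average but its probe set was dim (percentile 19.8). Its log2 signal was 3.27, 3.38 and 3.37 in arrays labelled miR-196b, against 4.02, 3.62 and 3.48 in empty vector arrays. The groups did not overlap, but the gap was 0.10 and the first empty vector array stood well above the others. The log2 difference of CPA5 was -0.36 with a 95% interval of -0.69 to -0.03, and across all named probe sets its limma adjusted p = 0.479 missed the threshold. Without the first empty vector array the difference was -0.21, over 1.5 times smaller.

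CPA1, the pancreatic enzyme gene, follows CPA5. It had 4.13, 4.01 and 4.26 in arrays labelled miR-196b, against 4.16, 4.07 and 4.24 in empty vector arrays (log2 signal). The log2 difference of CPA1 was -0.03 with a 95% interval of -0.24 to 0.19, and the values of the groups interleaved. Its sign turned without the second array labelled miR-196b (0.03) and without the third empty vector array (0.01).

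MEST encodes a protein of the alpha/beta hydrolase fold. Its log2 signal was 6.66, 6.64 and 6.37 in arrays labelled miR-196b, against 6.63, 6.74 and 6.83 in empty vector arrays. The lowest value was in the third array labelled miR-196b, and the groups overlapped. The log2 difference of MEST was -0.17 with a 95% interval of -0.42 to 0.07. Without that array it was -0.08, over 1.5 times smaller. MIR335, within MEST, averaged 2.35 ± 0.0907 in arrays labelled miR-196b and 2.36 ± 0.0577 in empty vector arrays (log2 signal, SD, n = 3 each), at percentile 5.57 of brightness.

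KLF14 had 5.777, 5.966 and 6.058 in arrays labelled miR-196b, against 5.681, 6.002 and 5.814 in empty vector arrays (log2 signal). The groups overlapped, and the log2 difference was 0.10 with a 95% interval of -0.17 to 0.37. With an array left out, the difference of KLF14 moved by over 1.5 times: it was 0.03 without the first empty vector array, 0.19 without the second, 0.18 without the first array labelled miR-196b and 0.04 without the third.

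LXN, on chromosome 3, had 2.30, 2.31 and 2.25 in arrays labelled miR-196b, against 2.49, 1.96 and 2.71 in empty vector arrays (log2 signal). Its empty vector arrays enclosed all arrays labelled miR-196b. The log2 difference of LXN was -0.10 with a 95% interval of -0.52 to 0.32, and its probe set was among the dimmest (percentile 5.35). It was -0.31 without the second empty vector array, -0.05 without the first, and turned to 0.06 without the third. RARRES1, a neighbour of LXN whose protein is a homologue of latexin, averaged 2.30 ± 0.0117 in arrays labelled miR-196b and 2.30 ± 0.0684 in empty vector arrays (log2 signal, SD, n = 3 each). It was as dim, at percentile 4.88.

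Of the 6 probe sets, CPA4 alone passed the test (limma, adjusted p below 0.05), where 0.0559% of all named probe sets did. The choice of the set used this contrast, so nothing is read from that count. The other 5 had limma adjusted p = 0.479 to 0.938 and a median log2 difference of -0.10, beside 0.01 over all named probe sets. Leaving out CPA4, which was chosen by this contrast, the groups did not overlap for 1 of the other 5, CPA5. Over all named probe sets that share was 17.2%. With 3 arrays a group, 0.1 is the smallest two-sided p of an exact permutation test.

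The stretch of chromosome 7 around CPA4 was described from NRF1 to PODXL through a list of 22 genes, of which 16 were measured by 18 probe sets. Without CPA4, 10 of 17 probe sets were higher in arrays labelled miR-196b and 7 lower, with a median log2 difference of 0.05. Of these, 0 passed the test (limma adjusted p of at least 0.479) and 1 had an unadjusted limma p below 0.05. Among all named probe sets 52% were higher, 0.0559% passed and 9.87% had such a p. The differences ran from -0.36 (CPA5) to 0.16 (LINC-PINT, a long noncoding RNA). Before CPA4 in chromosome order, SSMEM1 had a log2 difference of 0.06 with a 95% interval of -0.23 to 0.35, and TMEM209, a nuclear envelope protein gene, 0.11 with an interval of -0.10 to 0.31. After CPA1, CEP41, which encodes a centrosomal protein, had 7.13, 7.15 and 7.32 in arrays labelled miR-196b, against 7.07, 7.09 and 7.07 in empty vector arrays (log2 signal). Its groups did not overlap, and its difference was 0.12 (limma adjusted p = 0.644).

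**Figure D2:**
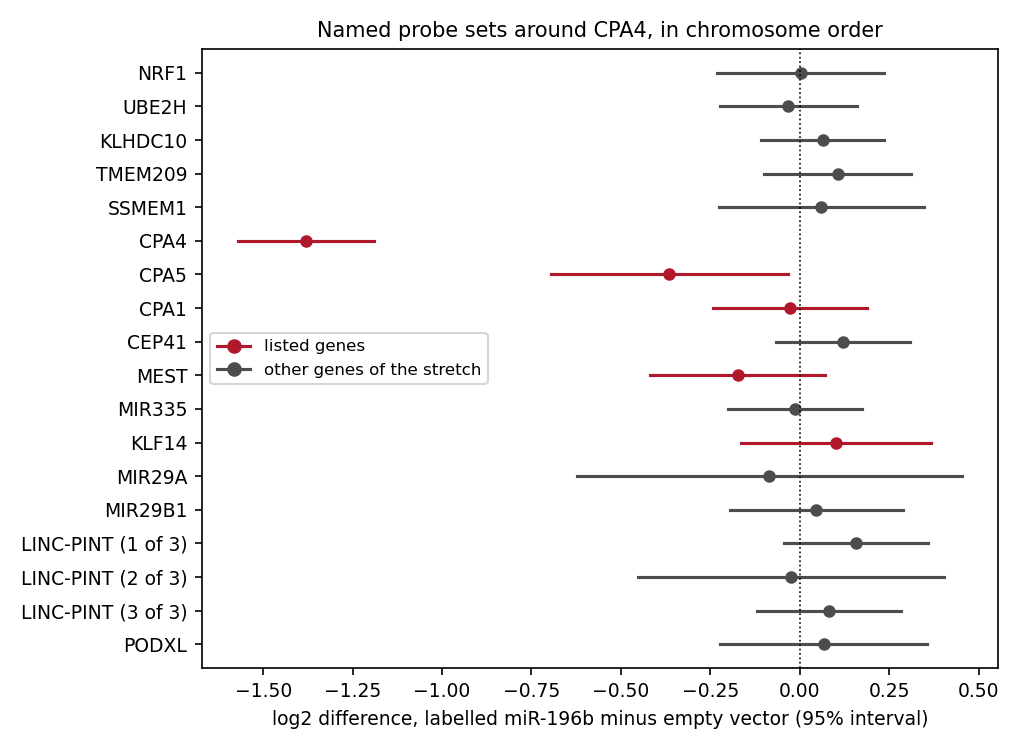
Log2 difference (arrays labelled miR-196b minus empty vector, x axis) with its 95% interval for the 18 named probe sets from NRF1 to PODXL, listed from top to bottom in chromosome order, with listed genes in red. CPA4 lies at -1.38, CPA5 at -0.36, and the others between -0.17 and 0.16.

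The microRNA genes MIR29A and MIR29B1 lie further along this stretch. MIR29A had 5.45, 5.67 and 5.30 in arrays labelled miR-196b, against 5.14, 5.46 and 6.08 in empty vector arrays (log2 signal). The spread among the empty vector arrays (SD 0.475) was wider than the difference of -0.08. MIR29B1 averaged 2.10 ± 0.181 in arrays labelled miR-196b and 2.06 ± 0.0394 in empty vector arrays (log2 signal, SD, n = 3 each), at percentile 3.11 of brightness. The 3 probe sets of LINC-PINT, which follows these microRNA genes, differed among themselves, with log2 differences of 0.16, -0.02 and 0.08.

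CPA4 passed the test within the M14 family, but it was chosen because it fell, so nothing is read from that. The list held 23 genes, of which 19 were measured by 1 probe set each. Without CPA4, 12 of 18 were higher in arrays labelled miR-196b and 6 lower, with a median log2 difference of 0.04, and 0 passed (limma, 4 at an unadjusted p below 0.05). Over all named probe sets the median was 0.01, 52% were higher, 0.0559% passed and 9.87% had an unadjusted p below 0.05.

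In the A and B subfamily, 8 of 9 genes were measured, 3 higher and 5 lower. The 5 lower include CPA4, which was chosen because it fell. CPO, an intestinal enzyme anchored to the cell surface, had 4.16, 4.33 and 5.11 in arrays labelled miR-196b, against 4.09, 4.12 and 4.16 in empty vector arrays (log2 signal). The third array labelled miR-196b carried most of its log2 difference of 0.41, which had a 95% interval of -0.13 to 0.94 (limma adjusted p = 0.591). CPB2, a plasma enzyme that slows the breakdown of fibrin clots, had 3.07, 2.60 and 2.81 in arrays labelled miR-196b, against 2.51, 2.48 and 2.54 in empty vector arrays (log2 signal). Its groups did not overlap at a dim signal (percentile 8.47), and its log2 difference was 0.32 (limma adjusted p = 0.476).

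In the N and E subfamily, whose members process prohormones and other proteins, 5 of 8 genes were measured, 4 higher and 1 lower. CPE, which trims peptide hormone precursors, had 6.39, 6.51 and 6.64 in arrays labelled miR-196b, against 6.25, 6.35 and 6.30 in empty vector arrays (log2 signal). The groups did not overlap, and the log2 difference was 0.22 (limma adjusted p = 0.487), its 95% interval running from 0.01 to 0.42. CPD, a carboxypeptidase of the secretory pathway, had a log2 difference of 0.13 at percentile 95.6 of brightness, and CPM, a membrane-bound enzyme, one of 0.04. AEBP1, a secreted relative linked to the extracellular matrix, had a log2 difference of -0.16.

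The cytosolic subfamily removes glutamates from tubulin and other proteins. All 6 genes were measured, 5 higher and 1 lower. AGTPBP1, a deglutamylase of neurons and other cells, had 7.14, 7.17 and 7.06 in arrays labelled miR-196b, against 6.62, 6.93 and 6.96 in empty vector arrays (log2 signal). Its groups did not overlap, and the log2 difference was 0.28 (limma adjusted p = 0.473), its 95% interval running from 0.03 to 0.54. AGBL4, AGBL2 and AGBL1 had log2 differences of 0.10, 0.08 and -0.08.

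**Figure D3:**
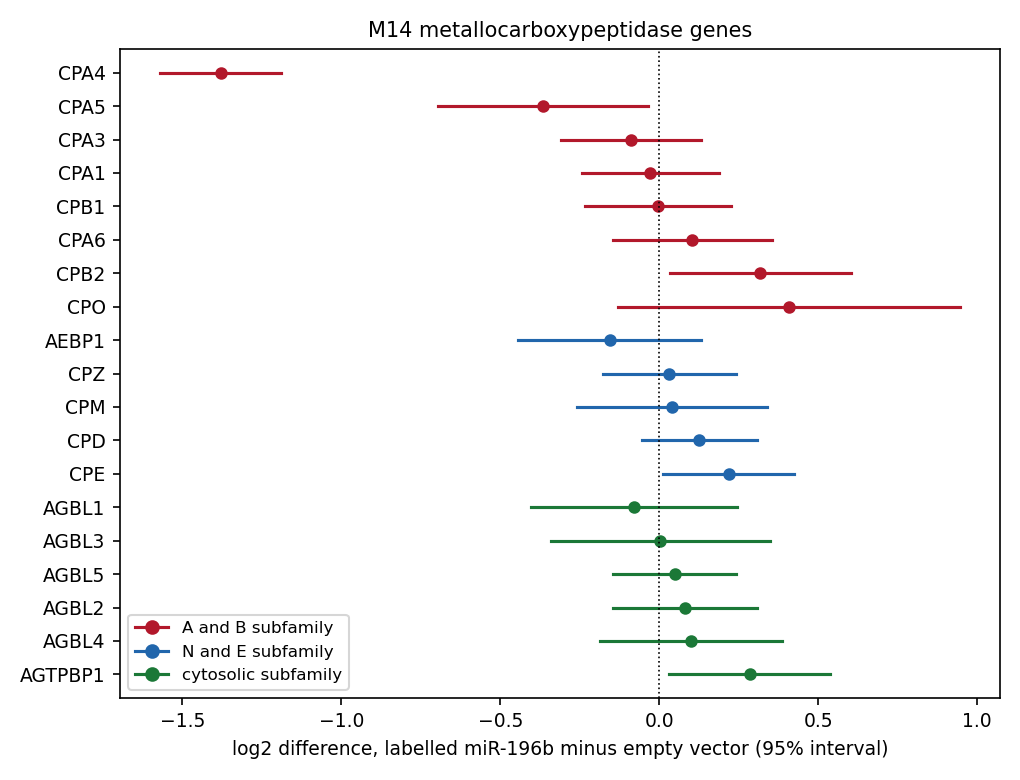
Log2 difference (arrays labelled miR-196b minus empty vector, x axis) with its 95% interval for 19 M14 carboxypeptidase genes, coloured by subfamily and ordered by difference within each. CPA4 lies at -1.38, and the other 18 lie between -0.36 and 0.41.

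Carboxypeptidases of other families form a further list. Of its 8 genes 6 were measured, 4 higher and 2 lower, with a median log2 difference of 0.04. Of these, 0 passed the test and 0 had an unadjusted p below 0.05 (limma). Among all named probe sets 52% were higher, 0.0559% passed and 9.87% had such a p. The lysosomal enzyme gene CTSZ had 7.87, 7.85 and 7.83 in arrays labelled miR-196b, against 7.78, 7.73 and 7.74 in empty vector arrays (log2 signal), a difference of 0.10. PRCP had a log2 difference of 0.12, FOLH1 of -0.18 and ACE of -0.05. The genes around LXN on chromosome 3 had log2 differences of 0.09 (RSRC1) and -0.08 (MFSD1).

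Imprinted genes at other loci were set beside MEST and KLF14. Of 29 listed genes 17 were measured by 18 probe sets, 11 higher in arrays labelled miR-196b and 7 lower, with a median log2 difference of 0.02. Of these, 0 passed the test and 1 had an unadjusted p below 0.05 (limma). Among all named probe sets 52% were higher, 0.0559% passed and 9.87% had such a p. PEG10, a gene derived from a retrotransposon and expressed from the paternal copy, had 7.68, 7.53 and 7.60 in arrays labelled miR-196b, against 7.14, 7.50 and 7.37 in empty vector arrays (log2 signal). Its groups were separated by a gap of 0.03, and its log2 difference was 0.27 (limma adjusted p = 0.489). The noncoding RNA KCNQ1OT1 had a log2 difference of 0.25, the adaptor gene GRB10 0.25 and NDN -0.21.

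The genes whose profile over the 6 arrays was closest to that of CPA4 were found among 12694 probe sets of protein-coding genes. The measure was the root mean square difference between log2 profiles, each taken relative to its own mean over the 6 arrays, so a small value means like direction and like size. The 5 closest were KRTAP2-3 (0.155), a keratin-associated protein gene, GALNT5 (0.202), a starter enzyme of mucin-type O-glycans, KRTAP3-1 (0.217), ANXA10 (0.269), an annexin, and DKK1 (0.291), a secreted WNT antagonist. The group difference dominates this measure, since all 5 are lower in every array labelled miR-196b. KRTAP2-3, GALNT5 and DKK1 passed the test (limma adjusted p = 0.0233 for each), while KRTAP3-1 (0.0528) and ANXA10 (0.0586) missed it. Over all named probe sets 0.0559% passed. These genes were picked for their likeness to CPA4, so nothing is read from their calls.

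Within the groups the profiles parted. CPA4 was lowest of the empty vector arrays in the second, at 8.434, while GALNT5 was highest there, at 7.998 beside 7.700 and 7.832. KRTAP3-1 had 4.40, 4.41 and 4.57 in arrays labelled miR-196b, against 5.43, 5.94 and 5.89 in empty vector arrays (log2 signal). ANXA10 had 5.205, 5.311 and 5.328 in arrays labelled miR-196b, against 6.003, 6.294 and 6.335 in empty vector arrays (log2 signal). In all 5 closest genes, unlike CPA4, the first empty vector array was the lowest of its group. KRTAP2-3 has near-identical copies whose signal its probes could share, so its value is uncertain.

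Windows of 250 bases before the start were at hand for 4 of these 5 genes. Each of the 4 held TATAAA, a motif in 10.7% of all windows, and none held TGANTCA, which CPA4 has and 6.57% of windows hold. CG pairs numbered 0 in ANXA10, 1 in KRTAP3-1, 4 in KRTAP2-3 and 18 in DKK1. Where the TATAAA matches of these genes begin was not recorded, so they are not taken for TATA boxes. KRTAP2-3 and KRTAP3-1 lie on the same chromosome, 17. This comparison of windows was made after the genes were known and was not tested.

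**Figure D4:**
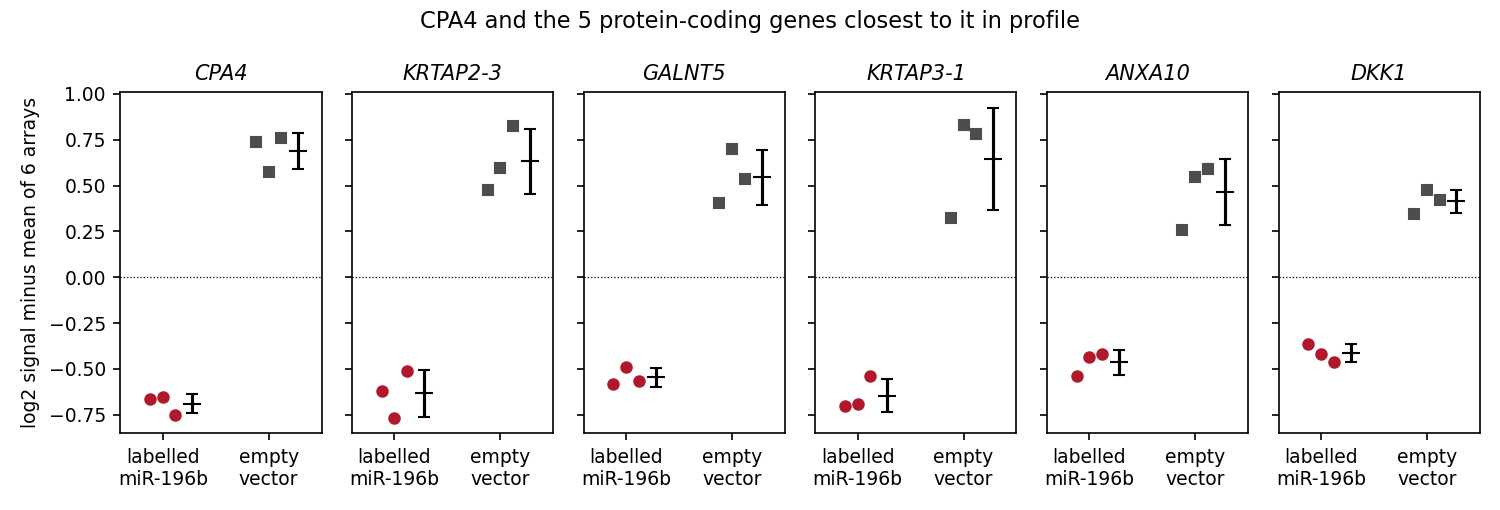
Log2 signal minus the mean of the 6 arrays (y axis) for CPA4 and the 5 protein-coding genes closest to it, with arrays labelled miR-196b as circles, empty vector arrays as squares, and bars for mean ± SD (n = 3 each). All 6 genes lie below 0 in every array labelled miR-196b and above 0 in every empty vector array.

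Markers of cells that express carboxypeptidase A genes were read beside these results. Of 6 mast cell markers 4 were measured, and their summed signal was 60.8 to 72.2 in arrays labelled miR-196b and 49.9 to 52.5 in empty vector arrays (linear scale). TPSAB1, a mast cell tryptase, averaged 5.32 ± 0.106 in arrays labelled miR-196b and 4.77 ± 0.0401 in empty vector arrays, while CPA3, the mast cell carboxypeptidase, averaged 2.76 ± 0.101 in arrays labelled miR-196b and 2.84 ± 0.120 in empty vector arrays (log2 signal, SD, n = 3 each). The mast cell sum rests mainly on TPSAB1, at percentile 42.8 of brightness, while CPA3 lay at 9.91, KIT at 10.2 and HDC at 18.4. The groups of KIT and HDC overlapped, with log2 differences of 0.11 and 0.13. Of 7 pancreatic acinar markers 4 were measured, and their sum was 50.5 to 62.4 in arrays labelled miR-196b and 54.2 to 58.3 in empty vector arrays. Of 6 fibroblast markers 3 were measured, with a sum of 35.4 to 42.6 in arrays labelled miR-196b and 37.1 to 44.9 in empty vector arrays. The summed signal of the 7 probe sets of the 6 measured epithelial markers was 5397 to 5580 in arrays labelled miR-196b and 5999 to 6089 in empty vector arrays. None of these markers passed the test (limma). At an unadjusted limma p below 0.05 were 2 epithelial, 1 mast cell, 1 acinar and 0 fibroblast probe sets, beside 9.87% of all named probe sets. The arrays are of an established carcinoma line, so these signals are not read as a share of mast, acinar or fibroblast cells. The relation of these signals to the CPA4 difference was not tested.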

How the data were processed

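Total RNA of 6 HCT116 arrays was measured, 3 labelled miR-196b and 3 empty vector, grouped by title and genotype field. The deposited values are log2 signals, 1 per probe set and array. Per the submitters' processing notes, Partek 6.6 and RMA were used, without order or options. Since RMA yields log2 values, base 2 was assumed. RMA includes quantile normalization between arrays, which removes differences in overall level. Array medians were 4.34 to 4.37, and the arrays correlated at r = 0.989 to 0.992 within and 0.988 to 0.990 between groups (across probe sets, not replicates). The build is not given in the sources used here.

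Gene names came from the platform annotation, with symbols updated through gene identifiers to GRCh38.p14. That build served for names, biotypes, gene order and the promoter and microRNA sequences. Of 53617 probe sets, 16098 had 1 symbol (14884 genes), 0 several and 37519 none. All 16098 were fitted with lmFit and eBayes of limma 3.58.1 in R 4.3.3, without filter or further normalization, with Benjamini-Hochberg adjustment over all of them at 0.05. The fit had 4 residual and 3.23 prior degrees of freedom. The number of arrays limits the precision. Replicate numbers are not shown to pair the arrays, so the main fit used no block.

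The members and lists were chosen with earlier results of these data known. All listed genes with a probe set were named, up to 4 probe sets of each list with the largest absolute difference, and the 5 protein-coding genes closest to CPA4 in profile. Other neighbours and the markers were named beside these for their position or role. The design planned a value for COPG2, which has no named probe set. Promoter and microRNA sequences came from RefSeq tables, with windows matched for CPA4, CPA1, MEST, COPG2, KLF14 and LXN. Alternatives were a filter on the dimmest 40% of probe sets, a trended robust variance prior, repeated quantile normalization, median centring, the replicate number as a block, leaving out each array, and all probe sets. Slides and scan dates were not used here, and batches were not tested.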

Additional observations from a re-analysis of the deposited data

How the results depend on the processing

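CPA4 kept its direction in all 12 alternatives, with log2 differences of -1.44 to -1.35, the range with each array left out. Its call was lost with the replicate number as a block (limma adjusted p = 0.120, over a range of 6.71e-07 to 0.120), where 0 listed probe sets and 0 probe sets of the wider lists were called (limma, 1 and 5 at an unadjusted p below 0.05), against 1 in each case in every other alternative. The numbers are not shown to pair the arrays: same-numbered arrays had deviations correlated at 0.030, 0.037 and 0.0085, and not every array correlated best with its own number. The block left 1 call among all 16098 probe sets, against 9 without it. Calls over all named probe sets numbered 22 without the dimmest 40%, 91 with a trended robust prior, 12 with all probe sets of the array, and 2 to 3 with an array left out. MEST and CPA5 stayed negative and KLF14 positive throughout. With an array left out, CPA5 ranged from -0.48 to -0.21, MEST from -0.23 to -0.08, KLF14 from 0.03 to 0.19, CPA1 from -0.09 to 0.03 and LXN from -0.31 to 0.06. CPA5, CPA1 and LXN have no value under the dim filter, which leaves them out. CPA5, CPA1 and LXN are dim, and signal over background could not be judged.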

Other observations

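COPG2IT1, a transcript from within COPG2 by its name, had a named probe set although COPG2 itself did not, and it was looked up after the other values were seen. Its log2 signal was 4.15, 3.69 and 3.35 in arrays labelled miR-196b, against 4.31, 3.76 and 3.61 in empty vector arrays. The groups overlapped, and both spread widely (SD 0.405 in arrays labelled miR-196b and 0.368 in empty vector arrays, n = 3 each). The log2 difference was -0.16 (limma adjusted p = 0.852), and its 95% interval ran from -0.73 to 0.41. It gives no level for COPG2.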
